A study of Homo sapiens with 15 samples.

Results

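The genes described here are 47 that copy DNA or start S phase: the origin recognition and licensing factors, the helicase and its activators, the replicative polymerases, the sliding clamp with its loader, the single-strand binding complex, enzymes of deoxynucleotide supply, and E2F1, E2F2, CCNE1 and CCNE2. They were chosen by symbol from a table of 57905 genes, and each was listed once. All 47 were among the 17214 genes tested, which had at least 0.5 FPKM (fragments per kilobase of transcript, scaled to the fragments mapped) in at least 3 of 12 libraries. The libraries are bulk RNA of SW480 cells, a human colorectal adenocarcinoma line whose cell type is labelled intestinal epithelial, in 4 groups of 3. The group labelled PINT shRNA1 carried a stable lentiviral short hairpin directed at the long non-coding RNA PINT and received PBS. The group PINT shRNA1+LPS carried the same hairpin and received lipopolysaccharide (LPS, a bacterial wall component) at 1 µg/ml for 4 h. The group LPS was wild-type cells given the same dose for the same time, and the group Control was wild-type cells given PBS for 4 h. One hairpin is represented and a non-targeting hairpin is not among the labelled groups, so carrying a lentiviral hairpin and targeting PINT cannot be told apart. The labels do not say that the libraries of a group came from separate cultures, so p-values measure the spread between these libraries only.

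Replication starts at origins that are bound by the origin recognition complex (ORC). CDC6 and CDT1 load the ring of MCM2 to MCM7 onto them in G1, and geminin (GMNN) blocks CDT1 afterwards. In S phase CDC45 and the GINS complex join the ring to form the active helicase, polymerase alpha with primase lays down primers, and polymerases epsilon and delta extend the strands on the PCNA clamp. Most of these genes are textbook targets of the E2F transcription factors. RB pocket proteins hold these factors until they are released by cyclin-dependent kinases, among which is CDK2 with cyclin E. In bulk RNA, fewer cells in S phase and less of a transcript in each cell cannot be told apart.

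Several facts of the libraries touch every comparison of hairpin with wild-type cells. LINC-PINT, the targeted gene, had 4.55, 5.26 and 5.34 FPKM in PINT shRNA1 and 2.88, 2.56 and 2.51 FPKM in Control, and 3.54, 4.00 and 4.08 FPKM in PINT shRNA1+LPS and 2.40, 2.82 and 1.91 FPKM in LPS. It was thus higher in the libraries labelled as a knockdown (log2 fold change 0.81 ± 0.118 SE, limma adjusted p = 0.000592 without LPS, and 0.61 ± 0.118, adjusted p = 0.00284 with LPS). No direction below can therefore be read as one of less PINT RNA. The value is per gene and does not separate transcripts, and the hairpin groups are called only by their labels. Absolute depth is unknown. Taking the depth of Control replicate 1 as 1, that of the other libraries was 0.914 to 1.05 in PINT shRNA1, 0.809 to 1 in Control, 1.3 to 1.51 in PINT shRNA1+LPS and 0.848 to 0.859 in LPS. The summed level of 10 epithelial markers was 1442 to 1607 FPKM in the 6 hairpin libraries and 2344 to 2669 FPKM in the 6 wild-type libraries, with CDX1 at 0 in all 12. Of 8 tested, 6 were lower and 1 higher in each hairpin comparison, among them EPCAM (-0.52 on the log2 scale without LPS, adjusted p = 2e-05). The summed levels of 12 leukocyte markers and of 11 fibroblast and endothelial markers were 3.97 to 5.24 FPKM and 2.80 to 3.22 FPKM in the hairpin libraries, and 3.24 to 4.24 FPKM and 3.78 to 4.52 FPKM in the wild-type libraries. PTPRC, the defining leukocyte gene, was at most 0.0713 FPKM, and COL1A2, COL3A1 and DCN were at 0 in at least 6 of 12 libraries each. The highest single values in these lists were 2.83 FPKM for LYZ and 3.71 FPKM for ACTA2, both in Control. In each hairpin comparison 1 of 3 tested leukocyte markers was called higher and none lower. Of 2 tested fibroblast and endothelial markers, 1 was called lower and none higher in each. The part of depth and of epithelial state in the differences below was not tested.

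Replication genes were abundant in these cells. The median member had 22.7 FPKM in Control, at percentile 83.0 of the genes tested, and 31 of 47 exceeded 20 FPKM. FPKM is a value per length, so levels can be set beside each other. PCNA led with 264 ± 3.43 FPKM (SD, n = 3), followed by MCM7 with 154 ± 6.56 FPKM, RRM2, the small subunit of ribonucleotide reductase, with 97.4 ± 1.95 FPKM, MCM4 with 83.6 ± 1.67 FPKM and TYMS, thymidylate synthase, with 82.4 ± 3.18 FPKM. The last 2 do not differ beyond their spread. E2F2 was the lowest member with 2.65 ± 0.130 FPKM, against 25.7 ± 2.40 FPKM for E2F1, and CCNE1 was next with 6.74 ± 0.899 FPKM. Subunits that act together in 1 complex were not equal at the RNA level. Within the hexamer of MCM2 to MCM7, Control levels ran from 29.7 FPKM for MCM5 to 154 FPKM for MCM7, which is 5.20-fold. The spread was 2.12-fold over the 4 GINS subunits, 2.55-fold over the 5 subunits of the clamp loader RFC, 1.86-fold over the 3 of the single-strand binding complex RPA and 2.70-fold over the 4 ORC genes among the members. Summed over all 47 genes, the level was 1709 to 1787 FPKM in PINT shRNA1 and 1807 to 1878 FPKM in Control, and 1692 to 1747 FPKM in PINT shRNA1+LPS and 1780 to 1816 FPKM in LPS. The sums did not overlap within either comparison, and no test was made of them. As a share of the summed FPKM of all genes, the members made up 0.4157% to 0.4349% in PINT shRNA1 and 0.4288% to 0.4481% in Control. These shares overlapped. Under LPS the shares were 0.4092% to 0.4245% in PINT shRNA1+LPS and 0.4259% to 0.4332% in LPS, without overlap but close.

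Promoter windows of 8 members called in at least 1 comparison below are shown because E2F binding letters lie close to their start, with those of RFC2 and RFC5 beside them. PCNA, ORC3 and POLE2 also have such letters near a start and are not printed. RefSeq promoters (GRCh38.p14, a later build than the GRCh37/hg19 of the deposited values) run from 250 bases before the start to 50 bases after it, and 40 of the 47 symbols matched 1 or more entries, 50 in all. MCM4, MCM5, GINS4, POLD3, RPA2, RPA3 and CCNE2 had none. The letters TTTCGCGC, TTTGGCGC, TTTCCCGC or TTTGGCGG were searched on both strands. At least 1 of them was in 24 of 50 member entries (48.0%), against 1177 of 35116 entries of all genes (3.35%). The CCAAT box was in 30 of 50 member entries, against 34.6% of all entries. The SP1 letters GGGCGG were in 74.0% of member entries and 45.0% of all entries, and the CHR letters TTTGAA in 1 of 50 member entries and 15.2% of all entries. On the other strand TTTCCCGC reads GCGGGAAA, which can share letters with GGGCGG, and CCAAT reads ATTGG. The windows printed hold 80 bases, 65 before the start and 15 from it, 5′ to 3′ on the gene's strand, with the E2F letters in capitals. They lie at chr16:58392406-58392485 for GINS3 and chr16:88803724-88803803 for CDT1, chr17:40287814-40287893 for CDC6, chr3:127598346-127598425 for MCM2 and chr20:25407608-25407687 for GINS1, all on the plus strand. Those on the minus strand lie at chr1:23531219-23531298 for E2F2, chr20:33686371-33686450 for E2F1 and chr12:132687328-132687407 for POLE. RFC2 (chr7:74254385-74254464, minus strand) and RFC5 (chr12:118016638-118016717, plus strand) are called members with none of these letters in the window, which says nothing of the factor itself.
GINS3: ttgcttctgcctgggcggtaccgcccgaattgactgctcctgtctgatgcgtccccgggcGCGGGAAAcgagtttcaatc
CDC6: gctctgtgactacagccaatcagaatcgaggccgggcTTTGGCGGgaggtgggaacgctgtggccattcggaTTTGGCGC
CDT1: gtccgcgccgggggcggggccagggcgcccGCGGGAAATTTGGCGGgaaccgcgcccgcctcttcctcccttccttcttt
MCM2: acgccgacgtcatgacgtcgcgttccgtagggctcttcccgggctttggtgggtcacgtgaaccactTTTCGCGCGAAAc
E2F2: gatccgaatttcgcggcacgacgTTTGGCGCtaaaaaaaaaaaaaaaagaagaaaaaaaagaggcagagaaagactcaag
E2F1: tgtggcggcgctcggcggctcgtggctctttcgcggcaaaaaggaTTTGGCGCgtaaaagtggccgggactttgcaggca
GINS1: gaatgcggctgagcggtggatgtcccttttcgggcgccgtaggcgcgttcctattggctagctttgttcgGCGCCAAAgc
POLE: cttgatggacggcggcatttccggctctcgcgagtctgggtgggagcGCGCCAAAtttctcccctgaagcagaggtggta
RFC2: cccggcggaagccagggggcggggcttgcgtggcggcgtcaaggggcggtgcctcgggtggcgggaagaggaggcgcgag
RFC5: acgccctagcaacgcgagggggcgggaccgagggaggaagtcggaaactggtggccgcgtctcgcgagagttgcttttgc

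Without LPS, 12 of the 47 genes were lower in PINT shRNA1 than in Control and 2 were higher, at a limma adjusted p under 0.05 over all genes tested. The lower genes included GINS3, the licensing factors CDC6 and CDT1, the polymerase alpha catalytic subunit POLA1, PCNA, E2F1 and E2F2. Log2 fold changes of the lower genes ran from -0.12 for RRM2 to -0.70 for E2F2. The higher genes were POLE and GINS1. In all, 29.8% of the members were called, against 27.3% of all genes tested, so the share of called members was near the background. By direction, 25.5% of members were called lower against 10.3% of all genes, and 4.26% were called higher against 16.9%. Scaling each library to a common median gave 15 lower and 0 higher of the 47 members, beside 12.4% lower and 13% higher of all genes. Quantile normalization also gave 15 lower and 0 higher, beside 12.8% and 13.1% of all genes. The median log2 fold change was -0.05 over the members and 0.06 over all genes tested. The PINT shRNA1 and Control libraries did not overlap for 16 of 47 members on the lower side and 4 of 47 on the higher side. Over all 17214 genes tested, 2714 (15.8%) and 4399 (25.6%) did not overlap on these sides.

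**Figure D1:**
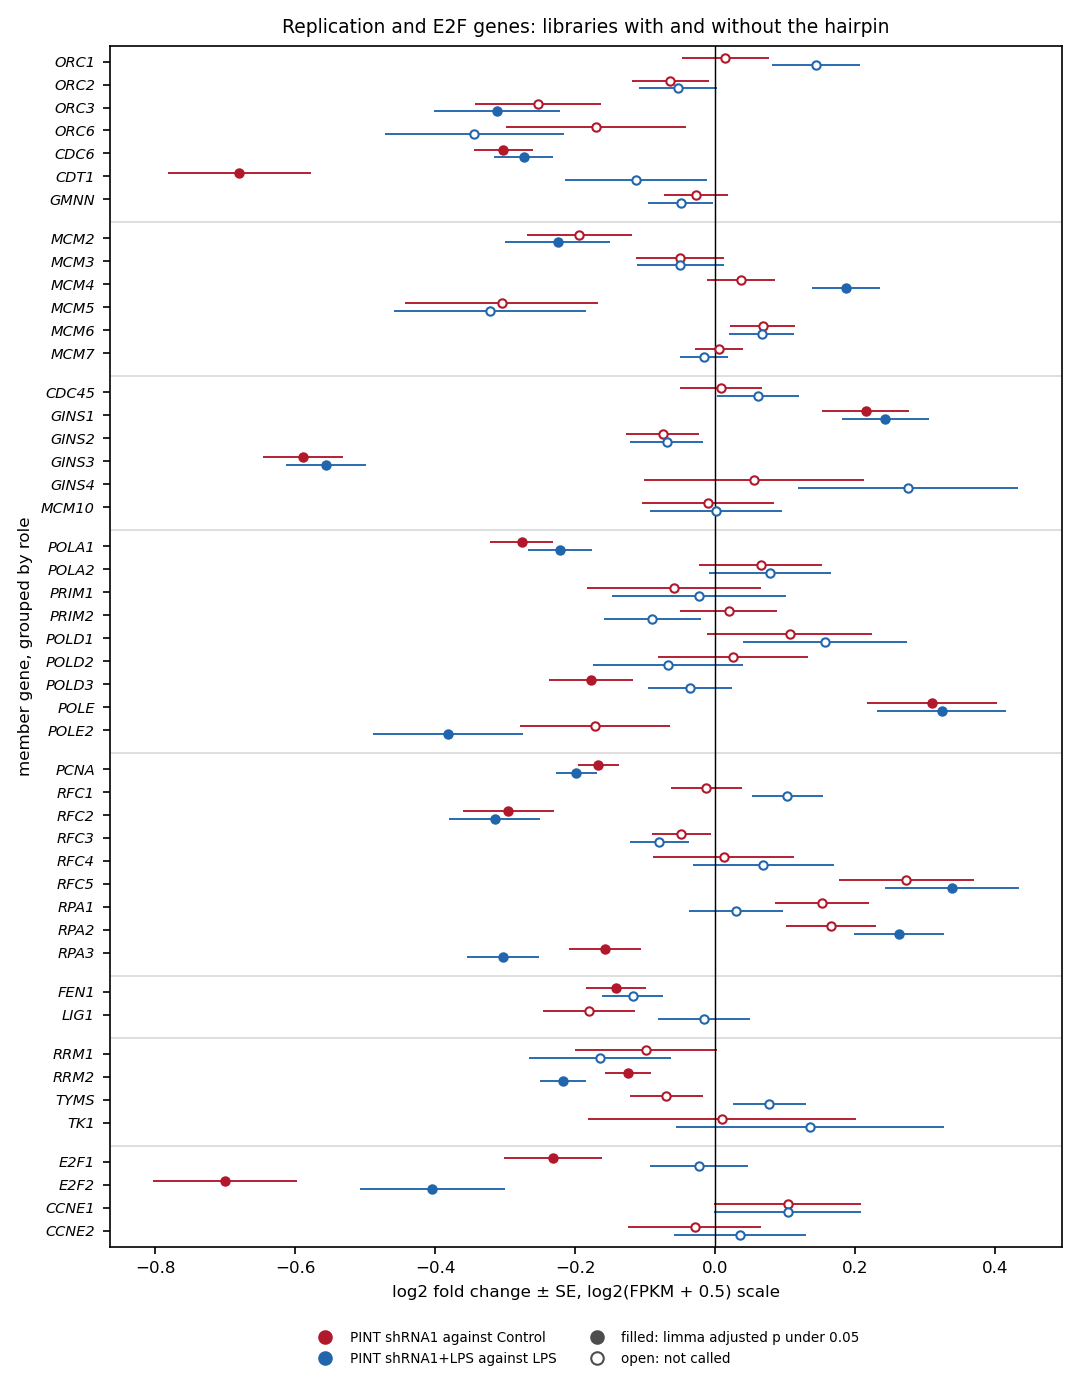
log2 fold changes (points) with their SE (bars) of the 47 genes, grouped by role, for PINT shRNA1 against Control and PINT shRNA1+LPS against LPS on the log2(FPKM + 0.5) scale, with filled points at a limma adjusted p under 0.05. GINS3 lies near -0.6 in both comparisons, CDT1 and E2F2 lie lower still without LPS, and no gene exceeds 0.34.

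Among the licensing genes, 2 of 7 fell and none rose, beside 27.3% of all genes called in either direction and 10.3% called lower. CDC6, the ATPase that recruits the MCM ring, had 43.6, 41.3 and 41.6 FPKM in PINT shRNA1 and 50.9, 54.3 and 51.3 FPKM in Control. CDT1, its partner in loading, had 7.06, 6.73 and 7.47 FPKM in PINT shRNA1 and 12.7, 11.4 and 10.9 FPKM in Control. All 3 hairpin libraries were below all 3 Control libraries for both genes. The log2 fold change was -0.30 ± 0.042 for CDC6 (adjusted p = 0.000452) and -0.68 ± 0.102 for CDT1 (adjusted p = 0.000726). ORC3, an origin recognition subunit, had 28.0, 26.1 and 24.5 FPKM in PINT shRNA1 and 28.8, 33.7 and 31.5 FPKM in Control, which did not overlap but missed the threshold (-0.25 ± 0.090, adjusted p = 0.0605). GMNN, the inhibitor of CDT1, averaged 23.5 ± 0.841 FPKM in PINT shRNA1 and 23.9 ± 0.536 FPKM in Control (SD, n = 3 each).

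None of the 6 MCM2 to MCM7 genes passed the test without LPS. MCM2, a usual marker of licensed cells, had 49.6, 47.1 and 45.0 FPKM in PINT shRNA1 and 54.8, 56.0 and 51.6 FPKM in Control. Its groups did not overlap, with a log2 fold change of -0.19 ± 0.075 and an adjusted p of 0.0782. MCM5 had a larger difference and a wider error, -0.31 ± 0.137 (adjusted p = 0.127).

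The GINS complex, which tethers polymerase epsilon to the helicase, held genes that moved in opposite directions. GINS3 had 6.6, 6.42 and 6.56 FPKM in PINT shRNA1 and 10.6, 9.85 and 9.74 FPKM in Control, a log2 fold change of -0.59 ± 0.057 (adjusted p = 4.41e-05, the smallest of any member). Every hairpin library was below every Control library. GINS1 rose by 0.21 ± 0.062 (adjusted p = 0.026). GINS2, GINS4, CDC45 and MCM10 were not called.

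Of the 9 polymerase and primase genes, POLA1 and POLD3 fell and POLE rose. POLA1, the catalytic subunit that extends RNA primers, changed by -0.28 ± 0.046 on the log2 scale (adjusted p = 0.0013), and POLD3, an accessory subunit of polymerase delta, by -0.18 ± 0.060 (adjusted p = 0.0494). POLE, the leading-strand catalytic subunit, had 17.7, 17.9 and 17.4 FPKM in PINT shRNA1 and 14.1, 14.3 and 14.1 FPKM in Control, groups far apart for their spread (log2 fold change 0.31 ± 0.093, adjusted p = 0.0301). Its partner POLE2 had 8.28, 8.68 and 6.39 FPKM in PINT shRNA1 and 9.38, 8.65 and 8.27 FPKM in Control, which overlapped and did not pass the test (-0.17 ± 0.107, adjusted p = 0.271).

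Of the clamp, clamp loader and RPA genes, 3 of 9 fell and none rose, beside the same 27.3% and 10.3% of all genes. PCNA had 241, 229 and 235 FPKM in PINT shRNA1 and 263, 268 and 262 FPKM in Control. The step was small but did not overlap (log2 fold change -0.17 ± 0.030, adjusted p = 0.00198). RFC2 had 26.4, 23.3 and 26.2 FPKM in PINT shRNA1 and 30.9, 34.0 and 28.6 FPKM in Control (-0.30 ± 0.065, adjusted p = 0.00669). RPA3, the smallest RPA subunit, had 19.3, 18.2 and 18.1 FPKM in PINT shRNA1 and 20.7, 21.3 and 20.2 FPKM in Control (-0.16 ± 0.051, adjusted p = 0.0422). Both were below Control in every library. RFC5, another small clamp loader subunit, had 23.4, 27.3 and 24.8 FPKM in PINT shRNA1 and 21.3, 23.1 and 18.0 FPKM in Control, which did not overlap but missed the threshold (0.27 ± 0.096, adjusted p = 0.0566). FEN1, the flap nuclease of Okazaki fragments, fell by 0.14 on the log2 scale (SE 0.044, adjusted p = 0.0335) and RRM2 fell by 0.12 (SE 0.033, adjusted p = 0.0168). LIG1, RRM1, TYMS and TK1 were not called.

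Both E2F factors among the members, E2F1 and E2F2, were lower in PINT shRNA1. In the wider pathway lists, E2F3 and E2F4 were called higher in this comparison, by 0.25 (limma adjusted p = 0.00514) and 0.42 (limma adjusted p = 0.00141). E2F5, E2F6, E2F7 and E2F8 were not called. E2F2 had 1.43, 1.52 and 1.36 FPKM in PINT shRNA1 and 2.74, 2.71 and 2.50 FPKM in Control, a log2 fold change of -0.70 ± 0.103 (adjusted p = 0.000655) and the lowest of all members. At this low level the added 0.5 FPKM makes the log2 value understate the change. E2F1 had 22.9, 20.1 and 22.3 FPKM in PINT shRNA1 and 28.2, 25.4 and 23.4 FPKM in Control (-0.23 ± 0.070, adjusted p = 0.0318). The E2F1 groups were separate, but only narrowly. CCNE1, an E2F target that activates CDK2, overlapped between groups, with 6.69, 7.99 and 7.08 FPKM in PINT shRNA1 and 5.83, 6.75 and 7.63 FPKM in Control (0.10 ± 0.105, adjusted p = 0.511). Of the 14 calls without LPS, GINS3, CDC6, CDT1, E2F2, POLA1, PCNA and RFC2 stood in all 22 alternative analyses. The calls of POLD3, RPA3, POLE and FEN1 were lost in 14, 11, 9 and 8 of the 22 alternatives. Those of GINS1, E2F1 and RRM2 were lost in 6, 6 and 4. Without PINT shRNA1 replicate 2, 7 of 47 members were called, beside 22% of all genes tested. Without Control replicate 2, 9 were called, beside 23.5%.

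**Figure D2:**
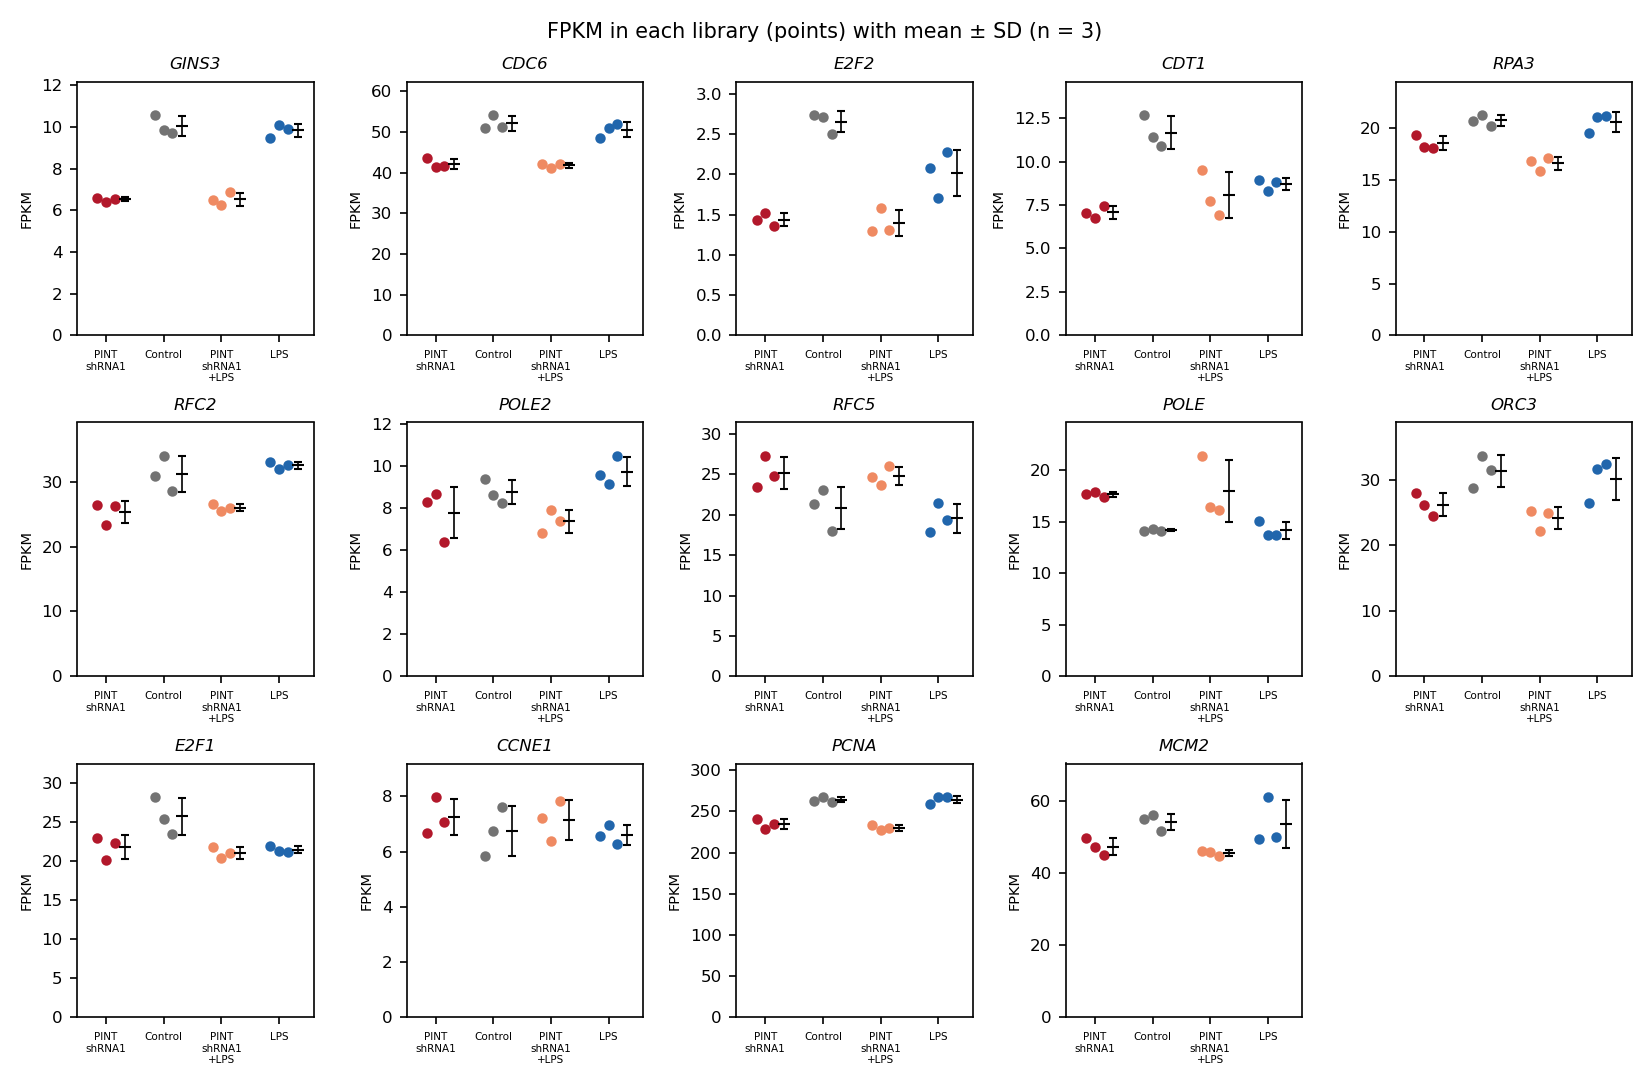
FPKM of 14 genes in each of the 12 libraries (points), with mean ± SD beside each group (bars, n = 3), in the order PINT shRNA1, Control, PINT shRNA1+LPS, LPS. GINS3, CDC6 and PCNA are lower in all 6 hairpin libraries than in all 6 wild-type libraries, while the CCNE1 groups overlap.

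Under LPS, 11 members were lower in PINT shRNA1+LPS than in LPS and 5 were higher. That is 34.0% of the members, beside 29.2% of all genes tested. The group means come from other libraries than those compared above, but the spread of each gene was estimated from all 12 libraries. By direction, 23.4% of members were called lower beside 11.6% of all genes, and 10.6% were called higher beside 17.7%. Median scaling gave 14 lower and 2 higher of the 47 members, beside 14.8% lower and 13.9% higher of all genes. Quantile normalization gave 12 lower and 5 higher, beside 13.7% and 14.9% of all genes. The median log2 fold change was -0.04 over the members and 0.05 over all genes tested. The groups did not overlap for 15 of 47 members on the lower side and 8 of 47 on the higher side. Over all 17214 genes tested, 3109 (18.1%) and 4765 (27.7%) did not overlap on these sides.

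The GINS3 difference was close to that without LPS, with 6.49, 6.25 and 6.87 FPKM in PINT shRNA1+LPS and 9.50, 10.1 and 9.92 FPKM in LPS (log2 fold change -0.56 ± 0.057, adjusted p = 5.71e-05). CDC6 had 42.1, 41.1 and 42.2 FPKM in PINT shRNA1+LPS and 48.6, 51.1 and 52.1 FPKM in LPS (-0.27 ± 0.042, adjusted p = 0.000754). PCNA had 234, 227 and 230 FPKM in PINT shRNA1+LPS and 259, 267 and 267 FPKM in LPS (-0.20 ± 0.030, adjusted p = 0.000629). These 3 genes separated all 6 hairpin libraries from all 6 wild-type libraries. Other members did so too: RFC2, RPA3, E2F2, POLA1, RRM2 and FEN1 on the lower side, and POLE and RFC5 on the higher side. RFC2 had 26.5, 25.5 and 26.0 FPKM in PINT shRNA1+LPS and 33.0, 32.0 and 32.5 FPKM in LPS (-0.32 ± 0.065, adjusted p = 0.0043). RPA3 had 16.8, 15.9 and 17.1 FPKM in PINT shRNA1+LPS and 19.5, 21.1 and 21.2 FPKM in LPS (-0.30 ± 0.051, adjusted p = 0.00134). E2F2 had 1.3, 1.58 and 1.31 FPKM in PINT shRNA1+LPS and 2.08, 1.71 and 2.27 FPKM in LPS (-0.40 ± 0.103, adjusted p = 0.0133). None of the 3 overlapped, although LPS replicate 2 came close to the hairpin libraries for E2F2. POLA1 (-0.22 ± 0.046, adjusted p = 0.00433) and RRM2 (-0.22 ± 0.033, adjusted p = 0.000675) were again lower.

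Other members were called with LPS that had missed the threshold without it. ORC3 had 25.3, 22.2 and 25.0 FPKM in PINT shRNA1+LPS and 26.4, 31.6 and 32.4 FPKM in LPS (-0.31 ± 0.090, adjusted p = 0.0244). MCM2 had 46.1, 45.8 and 44.6 FPKM in PINT shRNA1+LPS and 49.5, 61.1 and 49.9 FPKM in LPS (-0.23 ± 0.075, adjusted p = 0.0432), and LPS replicate 2 stood above the other libraries. The MCM2 call was lost in 10 of 22 alternatives, one of them the fit without that library. POLE2 had 6.82, 7.91 and 7.38 FPKM in PINT shRNA1+LPS and 9.58, 9.14 and 10.5 FPKM in LPS, which did not overlap (-0.38 ± 0.107, adjusted p = 0.0212). RFC5 rose, with 24.6, 23.7 and 26.0 FPKM in PINT shRNA1+LPS and 17.9, 21.4 and 19.3 FPKM in LPS (0.34 ± 0.096, adjusted p = 0.0222). RPA2, the middle RPA subunit (0.26 ± 0.064, adjusted p = 0.0109), and MCM4 (0.19 ± 0.049, adjusted p = 0.0152) rose as well.

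POLE had 21.4, 16.4 and 16.1 FPKM in PINT shRNA1+LPS and 15.1, 13.7 and 13.7 FPKM in LPS (0.32 ± 0.093, adjusted p = 0.023), with PINT shRNA1+LPS replicate 1 well above the others, and the call was lost without LPS replicate 2 or 3. GINS1 rose again (0.24 ± 0.062, adjusted p = 0.0134). CDT1, E2F1, POLD3 (-0.04 ± 0.060, adjusted p = 0.697) and FEN1 (-0.12 ± 0.044, adjusted p = 0.0641) did not pass the test under LPS. CDT1 had 9.52, 7.75 and 6.91 FPKM in PINT shRNA1+LPS and 8.95, 8.30 and 8.81 FPKM in LPS (-0.11 ± 0.102, adjusted p = 0.447). E2F1 had 21.8, 20.3 and 21.0 FPKM in PINT shRNA1+LPS and 21.9, 21.2 and 21.1 FPKM in LPS (-0.02 ± 0.070, adjusted p = 0.84). CCNE1 had 7.23, 6.37 and 7.82 FPKM in PINT shRNA1+LPS and 6.57, 6.96 and 6.26 FPKM in LPS (0.10 ± 0.105, adjusted p = 0.507), so its groups overlapped in both comparisons. Of the 16 calls with LPS, 8 stood in all 22 alternatives: GINS3, PCNA, RRM2, CDC6, RPA3, POLA1, RFC2 and RPA2. Leaving out a single library of the groups compared ended the calls of E2F2, POLE2, RFC5, ORC3 and MCM4, with adjusted p at most 0.0933 over all alternatives.

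The comparisons with and without LPS share no library in their group means, and their calls can be set side by side. The calls are not independent, because the spread of each gene came from all 12 libraries in both. CDC6, GINS3, POLA1, PCNA, RFC2, RPA3, RRM2 and E2F2 were called lower in both, which is 8 of the 12 lower without LPS and 8 of the 11 lower with it. GINS1 and POLE were called higher in both, and no member was called in opposite directions. Under median scaling the calls of both genes were lost in both comparisons (adjusted p at most 0.0964 for GINS1 and 0.0832 for POLE over all alternatives). CDT1, POLD3, FEN1 and E2F1 were called without LPS and not with it, ORC3, MCM2, POLE2, MCM4, RFC5 and RPA2 with LPS and not without it, and 27 members in neither. The log2 fold changes had the same sign for 40 of 47 members. As a description across genes, which are not independent replicates, they correlated with r = 0.81 (Spearman rho = 0.85) over the members and r = 0.69 over all genes tested. E2F letters were in the promoter of 10 of the 13 matched members called lower in either comparison, 2 of the 3 called higher and 12 of the 24 called in neither.

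**Figure D3:**
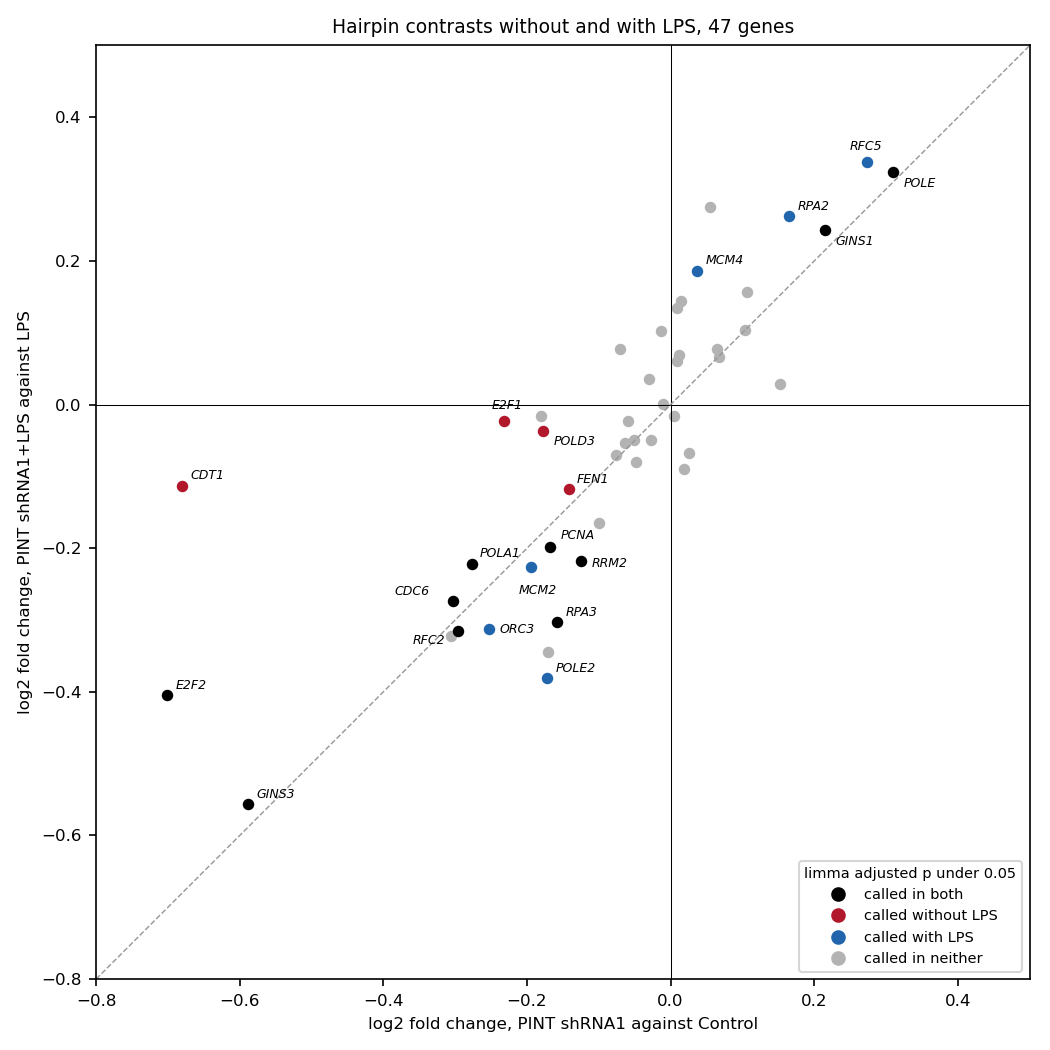
log2 fold change of PINT shRNA1 against Control (x axis) and of PINT shRNA1+LPS against LPS (y axis) for the 47 genes, coloured by where they were called, with the line of equality dashed. Most genes lie near the line, and CDT1 is farthest from it, at -0.68 without LPS and -0.11 with LPS.

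Because partners within a complex moved apart, their ratio was taken inside each library. The pairs were chosen after the values were seen, so the ratios are a description and were given no test. The GINS3 to GINS1 ratio was 0.268, 0.270 and 0.278 in PINT shRNA1 and 0.504, 0.530 and 0.437 in Control, and 0.281, 0.282 and 0.297 in PINT shRNA1+LPS and 0.478, 0.544 and 0.521 in LPS. The hairpin libraries lay in a narrow band well below all the wild-type libraries. The POLE2 to POLE ratio was 0.469, 0.484 and 0.367 in PINT shRNA1 and 0.667, 0.605 and 0.587 in Control, and 0.318, 0.481 and 0.459 in PINT shRNA1+LPS and 0.632, 0.669 and 0.770 in LPS. The RFC2 to RFC5 ratio was 0.856 to 1.13 in the 6 hairpin libraries and 1.45 to 1.84 in the 6 wild-type libraries, and the RPA3 to RPA2 ratio 0.388 to 0.446 and 0.497 to 0.622. All 4 of these ratios separated hairpin from wild-type libraries with no overlap. The ratio of CDT1 to its inhibitor GMNN did so only without LPS, with 0.293, 0.299 and 0.314 in PINT shRNA1 and 0.533, 0.464 and 0.467 in Control. Under LPS it was 0.404, 0.352 and 0.297 in PINT shRNA1+LPS and 0.385, 0.354 and 0.359 in LPS.

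**Figure D4:**
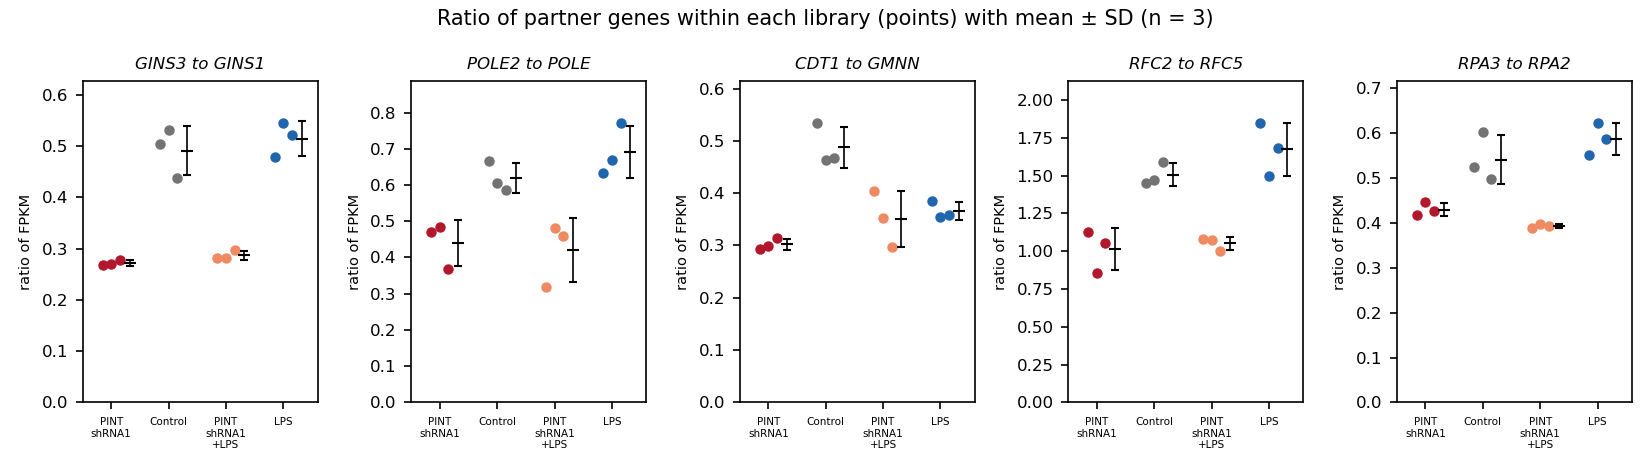
Ratio of FPKM of the first to the second gene inside each library (points), by group in the order PINT shRNA1, Control, PINT shRNA1+LPS, LPS, with mean ± SD (bars, n = 3). The ratios of GINS3 to GINS1, POLE2 to POLE, RFC2 to RFC5 and RPA3 to RPA2 are lower in the hairpin libraries, and the ratio of CDT1 to GMNN is high in the Control libraries.

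LPS alone changed none of the 47 genes past the threshold. Against Control, limma called 0 members, beside 2.76% of all genes tested, and 7 members had an unadjusted p under 0.05, as did 2896 of the 17214 genes tested. All 7 members were lower: CDT1 (-0.40 ± 0.102, adjusted p = 0.0666), E2F1 (-0.25 ± 0.070, adjusted p = 0.0912), E2F2 (-0.33 ± 0.103, adjusted p = 0.131), ORC1 (-0.22), LIG1 (-0.21), POLD3 (-0.18) and RFC1 (-0.18). Of the 2896 genes, 1841 were lower. All 3 LPS libraries were below all 3 Control libraries for CDT1, E2F1 and E2F2, with the values given above. Over all members, 40 of 47 log2 fold changes were negative, from -0.40 to 0.21, with a median of -0.04, which is also the median over all genes tested. With each library scaled to a common median, the median was 0.014 over the members and 0.013 over all genes tested. The negative majority is therefore not shown to be particular to the members. The groups did not overlap for 9 of 47 members on the lower side and 0 of 47 on the higher side. Over all 17214 genes tested, 2056 (11.9%) and 1242 (7.22%) did not overlap on these sides. Leaving out Control replicate 3 gave a call of E2F1, and leaving out PINT shRNA1+LPS replicate 1 or 3 gave a call of CDT1, so 1 member was called in those fits.

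**Figure D5:**
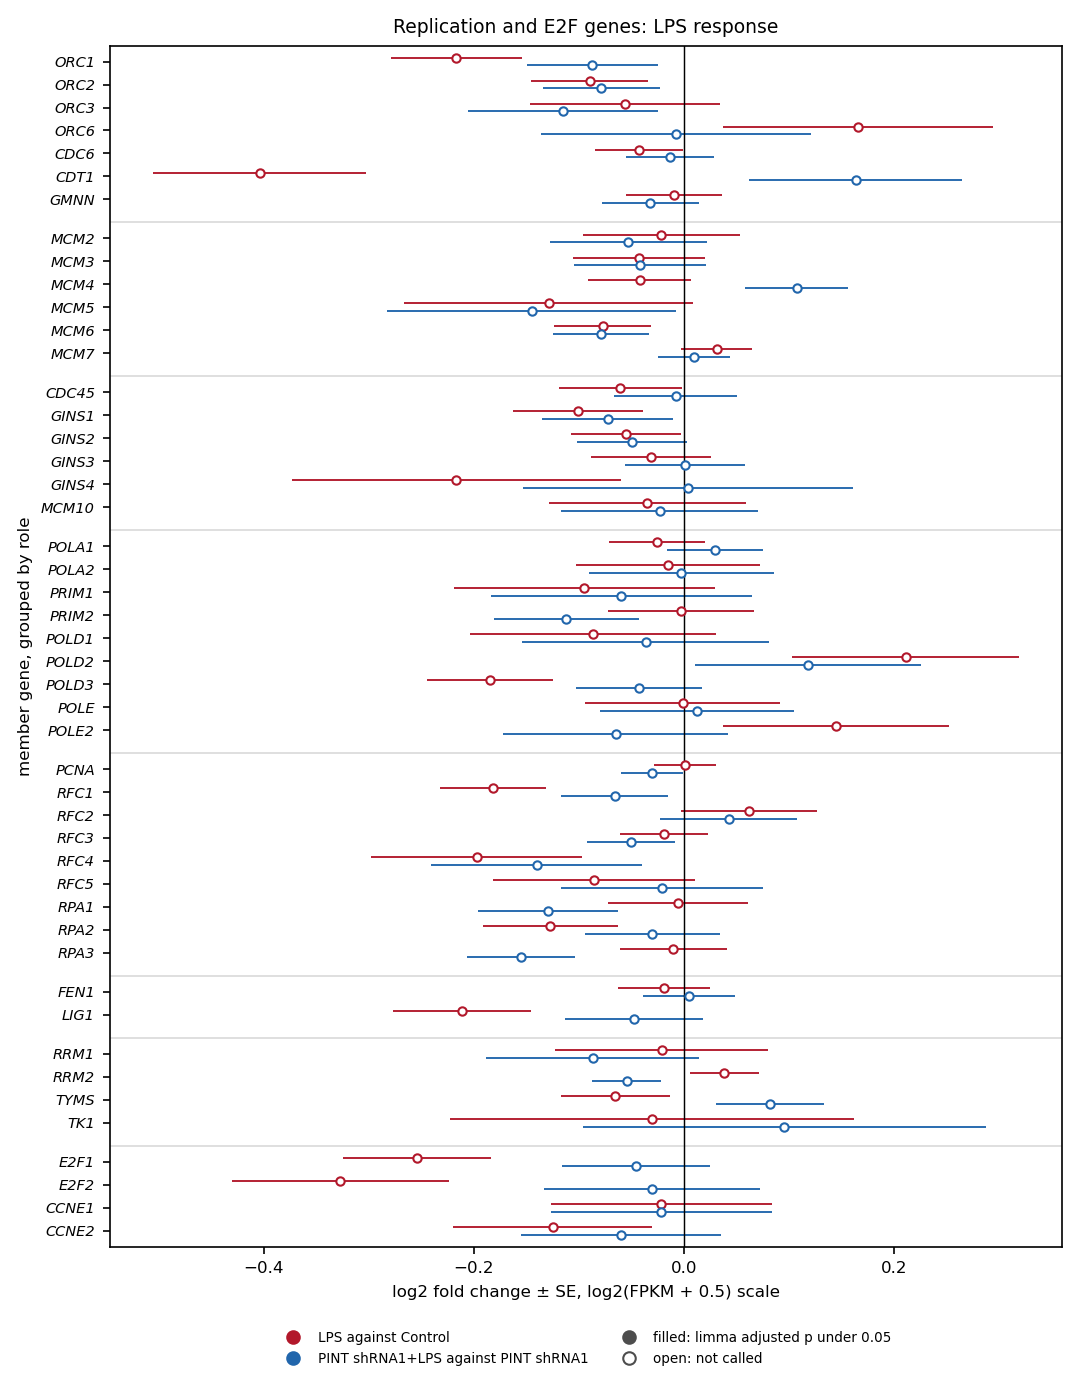
log2 fold changes (points) with their SE (bars) of the 47 genes, grouped by role, for LPS against Control and PINT shRNA1+LPS against PINT shRNA1 on the log2(FPKM + 0.5) scale. All points are open because no member reached a limma adjusted p under 0.05, and CDT1, E2F2 and E2F1 lie farthest to the left for LPS against Control.

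In cells with the hairpin, LPS also left the members below the threshold. limma called 0 of 47 for PINT shRNA1+LPS against PINT shRNA1, beside 0.186% of all genes, and 1 member, RPA3, had an unadjusted p under 0.05 (-0.16), as did 1508 of the 17214 genes tested. The log2 fold changes ran from -0.16 to 0.16. The interaction, which is the LPS response with the hairpin minus that without it, called 0 members, beside 0.128% of all genes. CDT1 alone had an unadjusted p under 0.05 there, as did 1333 of the genes tested, with 0.57 ± 0.144 and an adjusted p of 0.297. The interaction was 0.21 ± 0.099 for E2F1 (adjusted p = 0.666) and 0.30 ± 0.146 for E2F2 (adjusted p = 0.674). A hairpin difference of CDT1 or E2F1 that depends on LPS is therefore not shown, although each was called without LPS and not with it. Mean CDT1 was 7.09 FPKM in PINT shRNA1, 8.06 FPKM in PINT shRNA1+LPS, 8.69 FPKM in LPS and 11.7 FPKM in Control, so that Control was the group that stood apart.

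Beside the members, 70 other genes of the same pathway were listed and all were tested. In PINT shRNA1 against Control, 9 were lower and 10 higher, or 27.1% beside 27.3% of all genes. In PINT shRNA1+LPS against LPS, 8 were lower and 11 higher, again 27.1%, beside 29.2%. Among 11 pocket proteins and other E2F and DP factors, 3 were higher and 2 lower without LPS, and 2 were higher and 1 lower with it. TFDP1, the DNA-binding partner of E2F factors, had 93.8, 91.2 and 90.5 FPKM in PINT shRNA1 and 74.7, 70.6 and 68.2 FPKM in Control (0.37 ± 0.045, adjusted p = 0.000196), and rose by 0.31 under LPS (adjusted p = 0.000486). It was above every wild-type library in every hairpin library.

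Among 13 S-phase kinases and regulators, 2 were higher and 3 lower without LPS, and 2 were higher and 2 lower with it. SKP2, the ubiquitin ligase subunit that targets the CDK inhibitor p27, had 5.5, 5.16 and 6.90 FPKM in PINT shRNA1 and 12.1, 10.2 and 10.5 FPKM in Control (-0.86 ± 0.159, adjusted p = 0.00266). Among 25 other origin firing and replisome factors, 4 were higher and 1 lower without LPS, and 4 were higher and 2 lower with it. TOP1, the topoisomerase that relaxes DNA ahead of the fork, averaged 103 ± 2.72 FPKM in PINT shRNA1 and 75.7 ± 1.47 FPKM in Control (SD, n = 3 each), with no overlap (0.43 ± 0.038, adjusted p = 2.35e-05). It also rose under LPS, by 0.34 (adjusted p = 0.000118). Of the 12 other nucleotide synthesis genes, 1 was higher and 3 lower without LPS, and 2 were higher and 3 lower with it.

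Of the 9 genes of replication-coupled chromatin assembly, 0 were called without LPS and 1 was higher with it. LPS against Control called 1 of the 70, DTL, the adaptor that marks CDT1 for destruction on PCNA, with 7.91, 8.23 and 7.62 FPKM in LPS and 10.0, 10.5 and 14.2 FPKM in Control (-0.50 ± 0.114, adjusted p = 0.0447). That call was lost in 16 of 22 alternatives, and Control replicate 3 stood above the others. The hairpin calls given for TFDP1, SKP2 and TOP1 stood in all 22.

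Some members share exon bases with neighbouring genes in GENCODE 29 (GRCh38), and whether the authors counted by strand is not given in the sources used here. TYMS shares 39.1% of its exon bases with ENOSF1 and CCNE2 37.0% with INTS8, both on the opposite strand, so reads of the pairs cannot be told apart without strand. Antisense annotations cover 22.7% of MCM2 and 10.9% of GINS3, and genes on the same strand cover 35.1% of POLA2 and 20.2% of RRM2. No deposited FPKM value was matched to these overlapping genes of MCM2, GINS3, POLA2 and RRM2. CDC6, CDT1, E2F1, E2F2, POLA1, POLE, POLE2, PCNA, RFC2, RPA2, ORC3 and MCM4 share none.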

How the data were processed

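The authors' deposited table gives FPKM per Ensembl gene. Listed in the submitters' processing notes, without roles, are HISAT2 2.1.0, StringTie 1.3.4d, fastp and the build GRCh37/hg19. Of 18 library columns, 12 were used and 6 were not. The labels list 15 samples because each PINT shRNA1 RNA number has 2, and the table has 1 column for each number. The table holds no counts, so no counting error can be given and the precision is the SE of the fit. Relative depth came from the steps of low values.

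Values were taken as log2(deposited FPKM + 0.5), keeping genes that reached 0.5 FPKM in 3 or more libraries. They were fitted with limma 3.58.1 (R 4.3.3), as group means over all 12 libraries with an intensity trend. The 5 contrasts were two-sided, with Benjamini-Hochberg adjustment over all 17214 genes tested and a call at an adjusted p under 0.05. A fold change is on that log2 scale, which understates low genes. The procedure was tested on simulated data.

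The members, lists and tests were chosen with earlier results of these data known. Values per library are given for members called with an absolute log2 fold change of at least 0.3, and for E2F1, CCNE1, PCNA and MCM2. E2F3 and E2F4 of the other pathway lists are given by log2 fold change. These lists are otherwise given as counts, with values for at most 2 genes a list and comparison. A gene that this rule names is not reported here. Alternatives were other scalings, pseudocounts, filters and moderation, a term for the replicate number, fewer groups and each library left out. Promoter matches are descriptions.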

Additional observations from a re-analysis of the deposited data

How the results depend on the processing

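Of 30 called member changes in the hairpin comparisons, 15 kept their call in all 22 alternatives, 15 lost it in at least 1 and 0 reversed. In PINT shRNA1 against Control, 14 of 47 members were called, against 9 with no filter on low values and 9 in a fit of only the groups compared. Of all genes tested, 27.3% were called there, against 10.1% and 21.2%. Leaving out each library gave 7 to 15 there, 11 to 17 in PINT shRNA1+LPS against LPS, 0 to 1 in LPS against Control, and 0 in PINT shRNA1+LPS against PINT shRNA1 and in the interaction. The share of all genes called with a library left out was 20.8% to 27.8% without LPS, 22% to 29.8% with it and 1.68% to 2.4% for LPS against Control. The cause of the lower counts was not tested. FPKM does not give depth, so counting error is unknown. Same-numbered libraries did not deviate together (correlations of -0.048 to 0.057, and 12 of 36 best with their own number). A term for the replicate number (replicate block) gave 12 called members without LPS and 16 with it, and 0 in the other contrasts. Of all genes tested, that fit called 24.9% without LPS and 27.1% with it. Counting every entry of a repeated symbol was not run, since no member repeats, and for the interaction a fit of only the groups compared is the fit of all groups.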

Other observations

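CDKN1A, the gene of the CDK inhibitor p21 that restrains S-phase entry, was picked after its values were seen. It had 13.5, 11.8 and 14.3 FPKM in PINT shRNA1 and 33.1, 32.5 and 30.5 FPKM in Control. Under LPS it had 16.8, 17.2 and 16.3 FPKM in PINT shRNA1+LPS and 15.4, 41.0 and 13.2 FPKM in LPS. The 3 PINT shRNA1 libraries were all below Control, and LPS replicate 2 stood far above the other LPS libraries. The same library was the highest of its group for MCM2, with 61.1 FPKM against 49.5 and 49.9 FPKM. For other members it was the lowest of its group, among them RRM1 (69.0 FPKM), MCM3 (60.3 FPKM) and CDT1 (8.30 FPKM).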
